A study of Mus musculus with 20 samples.

Results

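Contractile and cytoskeletal genes of smooth muscle and myofibroblasts were followed in the kidneys of mice with Alport syndrome. The 9 genes were chosen by symbol: Acta2, Tagln, Myh11, Cnn1, Des, Myl9, Actg2, Lmod1 and Vim. They are 9 of 47069 Ensembl genes in the count table, and each was among the 17622 genes with enough counts to be tested. Total kidney RNA was sequenced from 20 mice aged 15 weeks, from a 129SJ x C57Bl/6J cross. Col4a3-/- mice, which lack the alpha-3 chain of type IV collagen in every cell, received from 5 weeks of age weekly subcutaneous PBS (Veh, n = 6), weekly subcutaneous Lademirsen at 50 mg/kg in PBS, an oligonucleotide against miR-21 (Anti-miR-21, n = 6), or ramipril, an angiotensin-converting enzyme inhibitor, at 11 mg/L in the drinking water (ACEi, n = 3). By the study's methods the ACEi mice were also given weekly PBS injections. Wild-type mice (WT, n = 5) were left untreated, so the Veh to WT comparison also holds the injections.

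Acta2 encodes alpha smooth muscle actin, the usual marker of myofibroblasts, the matrix-producing cells of a scarring kidney. In a healthy kidney the same actin is found mainly in the muscle of vessel walls and of the renal pelvis, together with smooth muscle myosin (Myh11), calponin (Cnn1) and leiomodin (Lmod1). Myofibroblasts share part of this set, and vimentin (Vim), an intermediate filament protein, is found in most cells of mesenchymal origin and in regenerating tubule cells. Bulk RNA gives one value for all of these cells, and fewer cells of a type and less RNA per cell cannot be told apart.

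Each library held between 28474301 and 29479629 estimated counts. Levels are given as CPM (counts scaled to a common library size) after scaling by trimmed mean of M-values (TMM), and differences as log2 fold changes with standard errors (SE) from edgeR's quasi-likelihood test, called at a Benjamini-Hochberg adjusted p under 0.05 over all genes tested. The scaling factors lay between 0.771 and 0.850 in WT and between 1.123 and 1.264 in Veh. The choice of scale thus moves the fold change of every gene between these groups, and the calls of genes that differed little. On library totals alone, the log2 fold change of Veh against WT was 1.97 for Acta2, 1.28 for Myl9 and 3.50 for Vim. After TMM these were 1.39, 0.70 and 2.92. Col4a3 stood at 217 ± 16.4 CPM (SD, n = 5) in WT and at 37.8 ± 7.63 in Veh (n = 6), 58.8 ± 11.1 in Anti-miR-21 (n = 6) and 48.5 ± 6.97 in ACEi (n = 3). The 5 proximal tubule markers summed to between 9634 and 12760 CPM in WT, and to between 1190 and 3162 CPM in Veh, so kidney tubule RNA was present throughout. Of the 2 flow cells used, A carried 13 libraries and B carried 7, and each group was on both, though unevenly. The libraries on A and B numbered 3 and 2 in WT, 4 and 2 in Veh, 5 and 1 in Anti-miR-21, and 1 and 2 in ACEi.

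Veh mice A1 and A4 stood apart from the other 4 Veh mice. The summed level of 5 urothelium markers (Upk1a, Upk1b, Upk2, Upk3a, Krt5), genes of the lining of the renal pelvis and ureter, was 191 CPM in A1 and 117 CPM in A4. It was between 10.7 and 23.1 CPM in the other Veh mice, between 2.23 and 35.1 in WT, between 1.69 and 8.42 in Anti-miR-21 and between 1.70 and 6.72 in ACEi. The adipocyte markers (Adipoq, Plin1, Cidec, Lep, Retn) summed to 90.1 CPM in A1 and 120 CPM in A4, but also to 90.5 in Veh mouse A9 and 99.7 in Anti-miR-21 mouse A12. Of the 5 skeletal muscle markers, Myh4 had no count in any of the 20 mice and the highest level of any other was 1.09 CPM (Mylpf). Both A1 and A4 were sequenced on flow cell A. Results that rest on A1 and A4 are given with and without them. Both were picked after seeing the data. They were the highest mice for Acta2, Tagln, Myh11, Cnn1, Des, Myl9 and Actg2, so leaving them out lowers Veh in these genes. For these genes the direction of that change was fixed in advance, and only its size is a result.

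Untreated disease was examined first, by comparing Veh with WT. Of the 9 genes, 7 were higher in Veh (Acta2, Tagln, Cnn1, Des, Myl9, Actg2, Vim), none was lower, and Myh11 and Lmod1 did not pass the test. Among all genes 73% passed and 39% passed as higher. The median log2 fold change was 1.39 for the 9 genes and 0.07 for all genes. Without A1 and A4, 5 genes passed as higher (Acta2, Tagln, Des, Myl9, Vim), and the median of the 9 was 0.49. In that fit 70.6% of all genes passed in either direction (12301 of 17424), 6510 of them as higher. In the same 5 genes every Veh mouse lay above every WT mouse, which held in this direction for 28.8% of all genes.

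**Figure D1:**
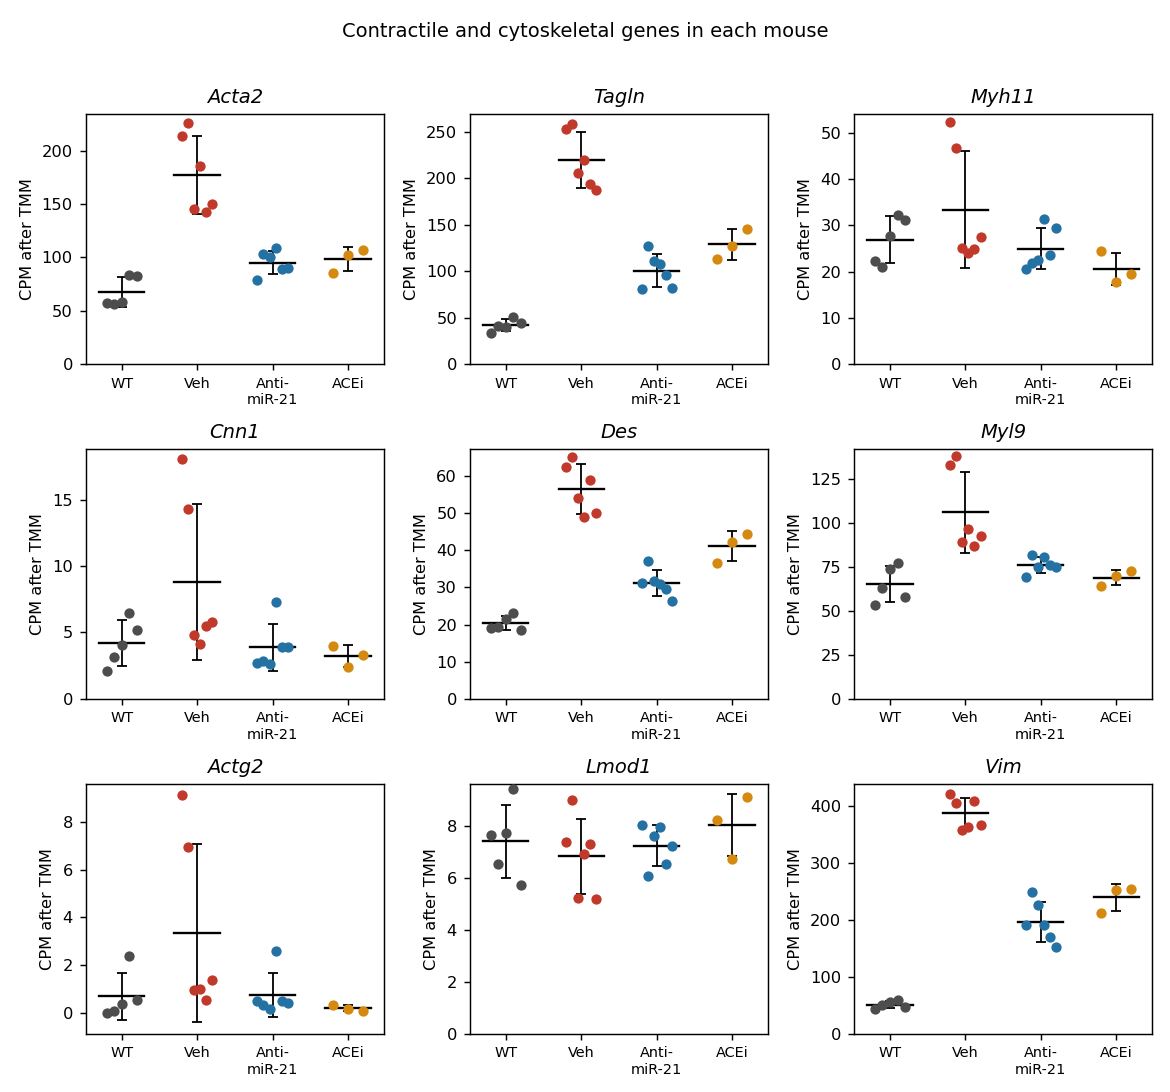
Level of each of the 9 genes in every mouse (vertical axes, CPM after TMM scaling, a separate range per gene) by group, with 1 point per mouse; the horizontal bar is the mean and the error bar the SD (WT n = 5, Veh n = 6, Anti-miR-21 n = 6, ACEi n = 3). In Acta2, Tagln, Des, Myl9 and Vim all Veh points lie above the WT points, whereas in Myh11, Cnn1 and Actg2 the 2 highest Veh points are mice A1 and A4.

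Acta2 (ENSMUSG00000035783, GRCm38 chr19:34241090-34255590, minus strand) was 57.6, 56.2, 58.2, 83.5 and 82.3 CPM in the WT mice and ranged from 142 to 226 CPM, with a median of 168, in Veh. The groups did not overlap, and A4 and A1 were the highest Veh mice with 226.0 and 213.8 CPM. The log2 fold change was 1.39 (SE 0.14, adjusted p = 2.75e-08), a 2.63-fold rise, and it was 1.21 (SE 0.13) without A1 and A4. The WT mice themselves split by flow cell, with 3 between 56.2 and 58.2 CPM on flow cell A and 2 between 82.3 and 83.5 CPM on flow cell B. The log2 fold change was 1.68 (SE 0.17) within flow cell A and 1.02 (SE 0.14) within flow cell B, and Acta2 passed the test in each.

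Serum response factor (SRF) drives many contractile genes from the CArG box, which reads CC, then 6 bases of A or T, then GG. RefSeq promoter windows on GRCm38.p6, from 250 bases before to 50 bases after the gene start, were held for 6 of the 9 genes (Acta2, Cnn1, Des, Myl9, Lmod1, Vim). Both strands were searched. A box was found for Myl9 only, and 1.63% of 32851 windows held one. Counted by gene, 1.81% of 27025 genes had a box in any of their windows. With 1 G or C allowed among the central bases, Acta2 and Myl9 held boxes, as did 9.98% of windows and 11.3% of genes. The 4 boxes are shown because they are the letters behind that count, each with 10 bases on either side and the box in capitals, 5′ to 3′ on the gene's strand:
Acta2, chr19:34255438-34255467, minus strand: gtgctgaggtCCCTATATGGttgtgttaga
Acta2, chr19:34255388-34255417, minus strand: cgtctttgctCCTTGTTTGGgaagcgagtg
Myl9, chr2:156775293-156775322, plus strand: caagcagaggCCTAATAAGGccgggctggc
Myl9, chr2:156775355-156775384, plus strand: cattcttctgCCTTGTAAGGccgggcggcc

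The Acta2 boxes begin 84 and 34 bases before the RefSeq gene start and lie inside an exon of the GENCODE annotation, whose gene start is further out. The Myl9 boxes begin 161 and 99 bases before the start and lie in no annotated exon. A match is a description of the letters, and binding was not measured.

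Tagln, which encodes the actin-binding protein transgelin (SM22-alpha; chr9:45929619-45936058, minus strand), was 33.0, 40.5, 39.5, 50.2 and 44.6 CPM in WT and from 187 to 258 CPM, with a median of 212.1, in Veh. The groups did not overlap. The log2 fold change was 2.40 (SE 0.14, adjusted p = 9.29e-12), and 2.28 without A1 and A4. Tagln overlaps Pcsk7 and the antisense gene Gm48529, and the authors' FPKM table marks its entry as confounded with another gene, so part of its reads could belong to a neighbour.

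Vim (chr2:13573927-13582826, plus strand) had the largest log2 fold change of the 9 with all mice, although Actg2 exceeded it within flow cell A (4.80 beside 3.01) and without WT mouse A17 (3.69 beside 2.97). Vim was 43.7, 50.5, 56.3, 59.2 and 46.9 CPM in WT and from 358 to 421 CPM, with a median of 387, in Veh. The log2 fold change was 2.92 (SE 0.12, adjusted p = 4.95e-13), a 7.55-fold rise, and 2.87 without A1 and A4. Des, which encodes desmin, the intermediate filament protein of muscle cells and of mesangial cells and injured podocytes (chr1:75360329-75368579, plus strand), was 19.2, 19.5, 21.6, 23.02 and 18.6 CPM in WT and from 48.9 to 65.0 CPM in Veh. Its log2 fold change was 1.47 (SE 0.09, adjusted p = 4.22e-11), and 1.38 without A1 and A4. Des overlaps the antisense gene Gm15179, and its FPKM entry is also marked as confounded.

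Myl9, the regulatory light chain of smooth muscle and non-muscle myosin (chr2:156775420-156781658, plus strand), rose least among the genes whose groups did not overlap. It was 53.7, 62.8, 73.9, 77.4 and 58.1 CPM in WT. In Veh it was 133 CPM in A1 and 138 CPM in A4, and between 86.9 and 96.9 CPM in the other 4 mice. The log2 fold change was 0.70 (SE 0.12, adjusted p = 2.93e-05), and 0.49 (SE 0.09, adjusted p = 0.000107) without A1 and A4.

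The remaining genes are those most restricted to mature smooth muscle. Myh11 (chr16:14194535-14291372, minus strand) was between 20.96 and 32.3 CPM in WT. It was 52.4 CPM in A1 and 46.8 CPM in A4, and between 24.1 and 27.5 CPM in the other 4 Veh mice, within the WT range. Its log2 fold change was 0.32 (SE 0.20, 95% confidence interval -0.10 to 0.73, adjusted p = 0.164) and -0.08 (SE 0.14, adjusted p = 0.62) without A1 and A4. With A1 and A4 kept, Myh11 passed as higher on unscaled library totals, with 0.90 beside a median of 0.65 for all genes. It also passed as higher in both limma fits on FPKM (0.73, adjusted p = 0.0013, and 0.87, adjusted p = 0.000992). The medians of all genes there were 0.22 and 0.43. Within flow cell A, which held A1 and A4, it passed with TMM scaling (0.67, SE 0.25, adjusted p = 0.0314). Within flow cell B it was -0.30 (adjusted p = 0.167).

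Cnn1 (chr9:22099216-22109630, plus strand) had the same layout. It was 18.1 CPM in A1 and 14.3 CPM in A4, between 4.17 and 5.81 CPM in the other Veh mice and between 2.09 and 6.50 CPM in WT. Its log2 fold change of 1.07 (SE 0.39, adjusted p = 0.0193) went to 0.28 (adjusted p = 0.437) without A1 and A4, and leaving out A1, A4 or WT mouse A3 alone was enough to lose the call. Actg2, the gamma actin of gut and urinary tract smooth muscle (chr6:83512905-83536265, minus strand), was 9.15 CPM in A1 and 6.97 CPM in A4, which correspond to 331 and 248 counts. The other Veh mice had between 19 and 49 counts (0.52 to 1.38 CPM), and the WT mice 0, 2, 9, 58 and 13 counts. Its log2 fold change was 2.28 (SE 0.91, adjusted p = 0.0302), and 0.49 (adjusted p = 0.618) without A1 and A4. The WT mouse with 58 counts, A17, also had the highest urothelium sum in WT, 35.1 CPM.

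Lmod1, which nucleates actin filaments in smooth muscle (chr1:135324807-135368065, plus strand), was between 5.70 and 9.40 CPM in WT and between 5.19 and 8.96 CPM in Veh. The groups overlapped, with a log2 fold change of -0.12 (SE 0.15, 95% confidence interval -0.42 to 0.19, adjusted p = 0.485). Its sign depends on the scale. On library totals alone it was 0.47, which passed as higher, beside the median of 0.65 for all genes. Lmod1 contains the small nuclear RNA gene Gm22796.

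**Figure D2:**
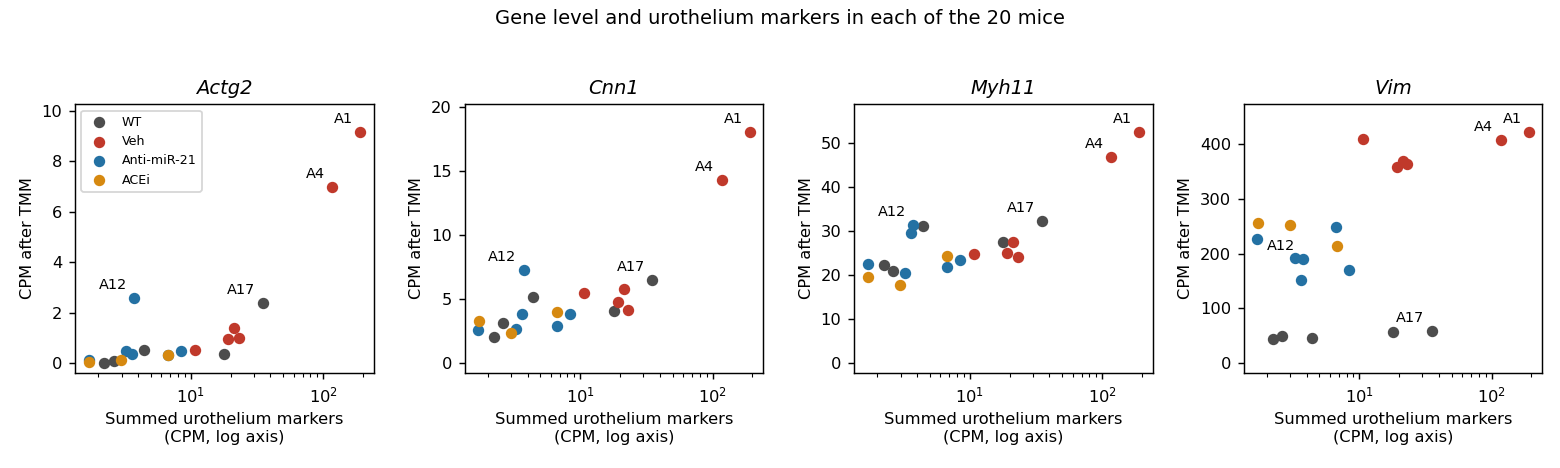
Level of Actg2, Cnn1, Myh11 and Vim (vertical axes, CPM after TMM) against the summed level of 5 urothelium markers (horizontal axes, CPM, log scale), with 1 point per mouse coloured by group. Mice A1 and A4 hold the highest urothelium sums (191 and 117 CPM) and the highest Actg2, Cnn1 and Myh11, whereas their Vim (421 and 406 CPM) lies within or just above that of the other Veh mice.

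In these terms A1 and A4 were the highest 2 of the 20 mice for Acta2, Tagln, Myh11, Cnn1, Des, Myl9 and Actg2, with urothelium markers also at their highest in these mice. Anti-miR-21 mouse A12 had the highest Cnn1 (7.31 CPM) and Actg2 (2.59 CPM, 69 counts) of its group with adipocyte markers at 99.7 CPM and urothelium markers at 3.75 CPM. Veh mouse A9, with adipocyte markers at 90.5 CPM, had 0.95 CPM of Actg2 and 4.82 CPM of Cnn1. The part of other tissue in the members' levels was not tested.

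Levels between genes were compared per length, as FPKM, on the authors' scale. FPKM carries no TMM factor, so its Veh to WT ratios differ from the fold changes above. In WT the highest was Myl9 at 49.1 ± 8.94 FPKM (SD, n = 5), followed by Vim at 23.1 ± 3.55, Acta2 at 21.8 ± 4.98 and Tagln at 21.7 ± 4.02, whose ranges overlapped one another. Des stood at 5.47 ± 0.61, Myh11 at 3.46 ± 0.73, Cnn1 at 1.76 ± 0.73, Lmod1 at 1.55 ± 0.32 and Actg2 at 0.47 ± 0.63. The ranges of Cnn1 and Lmod1 overlapped. In Veh (n = 6) Vim came first at 263 ± 25.1 FPKM and Tagln next at 172 ± 23.8, followed by Myl9 at 120 ± 27.0 and Acta2 at 86.0 ± 17.3. The ranges of Tagln and Myl9 overlapped, as did those of Myl9 and Acta2. The Tagln and Des values carry the overlap with other genes named above.

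Anti-miR-21 was then compared with Veh, to see which of these levels differed under treatment. Of the 9 genes 7 were lower (Acta2, Tagln, Cnn1, Des, Myl9, Actg2, Vim) and none higher. Among all genes 59.2% passed and 30.5% passed as lower. The median log2 fold change was -0.90 for the 9 genes and -0.04 for all genes. With A1 and A4 left out, 5 passed as lower (Acta2, Tagln, Des, Myl9, Vim), and the median of the 9 was -0.38. In that fit 54% of all genes passed in either direction (9409 of 17424), 4917 of them as higher.

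Acta2 ranged from 78.9 to 109 CPM, with a median of 94.98, under Anti-miR-21, below every Veh mouse. The log2 fold change was -0.90 (SE 0.13, adjusted p = 9.84e-06), and -0.69 without A1 and A4. Tagln ranged from 81.0 to 127 CPM, with a log2 fold change of -1.12 (SE 0.12, adjusted p = 2.38e-07). Vim ranged from 152 to 249 CPM, with a log2 fold change of -0.98 (SE 0.10, adjusted p = 2.13e-07). Mouse A8 was the highest of the group for Tagln, Vim and Des, and A22 the lowest for Vim and Des.

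Des ranged from 26.3 to 37.2 CPM (log2 fold change -0.86, SE 0.09, adjusted p = 1.19e-07) and Myl9 from 69.3 to 82.0 CPM (-0.47, SE 0.11, adjusted p = 0.0014). In these 5 genes no Anti-miR-21 mouse reached the lowest Veh mouse, which held in this direction for 17.9% of all genes. The Myl9 difference was -0.24 (SE 0.09, adjusted p = 0.0281) without A1 and A4. Within flow cell A, which held 4 mice of Veh and 5 of Anti-miR-21, all 5 passed as lower. There 53.5% of all genes passed in either direction (9855 of 18433), 4925 of them as higher.

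Cnn1 (-1.18, SE 0.37, adjusted p = 0.00933) and Actg2 (-2.18, SE 0.84, adjusted p = 0.0313) overlapped with Veh and lost their calls without A1 and A4, at -0.38 (adjusted p = 0.299) and -0.37 (adjusted p = 0.725). Actg2 had between 4 and 15 counts in 5 Anti-miR-21 mice and 69 in A12. Myh11 was between 20.6 and 31.3 CPM, with a log2 fold change of -0.43 (SE 0.19, adjusted p = 0.0606) that became -0.01 (adjusted p = 0.966) without A1 and A4. With A1 and A4 kept, Myh11 passed as lower in both limma fits on FPKM (adjusted p = 0.00466 and 0.00429), on library totals (0.00125), with upper-quartile scaling (0.0285), with 10 counts required in every mouse (0.0452) and within flow cell A (0.0475). Lmod1 was between 6.06 and 8.01 CPM, with 0.08 (SE 0.14, 95% confidence interval -0.21 to 0.37).

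**Figure D3:**
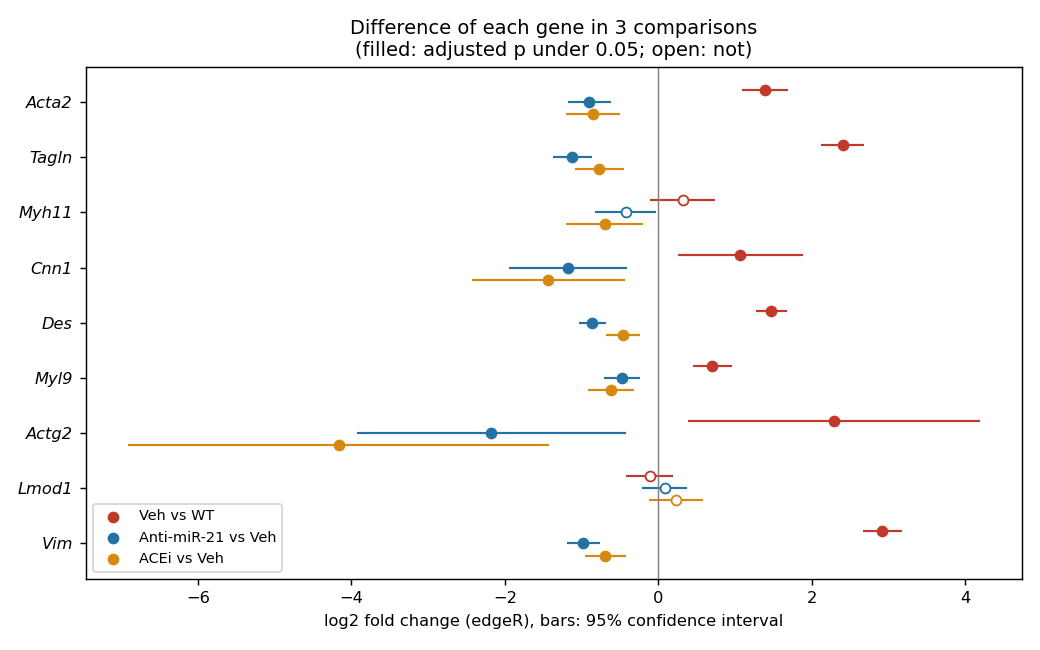
Log2 fold change of each gene in edgeR's quasi-likelihood test (horizontal axis) for Veh against WT, Anti-miR-21 against Veh and ACEi against Veh; bars are 95% confidence intervals, filled points have an adjusted p under 0.05 and open points do not. Vim and Tagln lie furthest to the right for Veh against WT (2.92 and 2.40), the intervals of Actg2 are the widest, and Lmod1 is open in all 3.

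ACEi was compared with Veh in the same way, with 3 treated mice. Of the 9 genes 8 were lower, all but Lmod1, and among all genes 40.1% passed and 19.1% passed as lower. The median log2 fold change was -0.70 for the 9 genes and -0.05 for all genes. Without A1 and A4, 5 passed as lower (Acta2, Tagln, Des, Myl9, Vim), and the median of the 9 was -0.61. In that fit 33.3% of all genes passed in either direction (5795 of 17424), 3573 of them as higher. Within flow cell B, with 2 mice per group, 3 passed as lower (Acta2, Tagln, Vim). There 7.35% of all genes passed in either direction (1316 of 17903), 909 of them as higher.

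Acta2 was 85.4, 102 and 107 CPM in the ACEi mice, below every Veh mouse (log2 fold change -0.85, SE 0.17, adjusted p = 0.000552). Tagln was 113, 128 and 146 CPM (-0.77, SE 0.15, adjusted p = 0.000543), and Vim was 213, 252 and 255 CPM (-0.69, SE 0.13, adjusted p = 0.000376). Des was 36.6, 42.1 and 44.5 CPM (-0.46, SE 0.11, adjusted p = 0.00204) and Myl9 64.4, 69.8 and 73.1 CPM (-0.62, SE 0.14, adjusted p = 0.00211). The Myl9 difference was -0.38 (adjusted p = 0.0108) when A1 and A4 were left out. Cnn1 and Actg2 also lay below every Veh mouse, so that 7 genes did, against 18.8% of all genes.

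Mouse A11 was the lowest of the ACEi mice for Acta2, Tagln, Des, Myl9 and Vim and the highest for Myh11, Cnn1 and Actg2. Myh11 was 24.4, 17.7 and 19.6 CPM (-0.70, SE 0.24, adjusted p = 0.0258), and Cnn1 4.001, 2.40 and 3.31 CPM (-1.44, SE 0.48, adjusted p = 0.0218). Actg2 had 10, 4 and 2 counts, and its log2 fold change of -4.17 (SE 1.31, adjusted p = 0.0163) has an interval from -6.91 to -1.43. Leaving out A1 and A4 gave -0.27 (adjusted p = 0.211), -0.62 (adjusted p = 0.196) and -2.35 (adjusted p = 0.121). Leaving out ACEi mouse A13 or A23 alone also took the calls of Myh11, Cnn1 and Actg2, and 5 genes then passed. In these fits 27.6% (without A13) and 33.1% (without A23) of all genes passed in either direction. Lmod1 was 8.20, 6.73 and 9.10 CPM (0.23, SE 0.17).

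**Figure D4:**
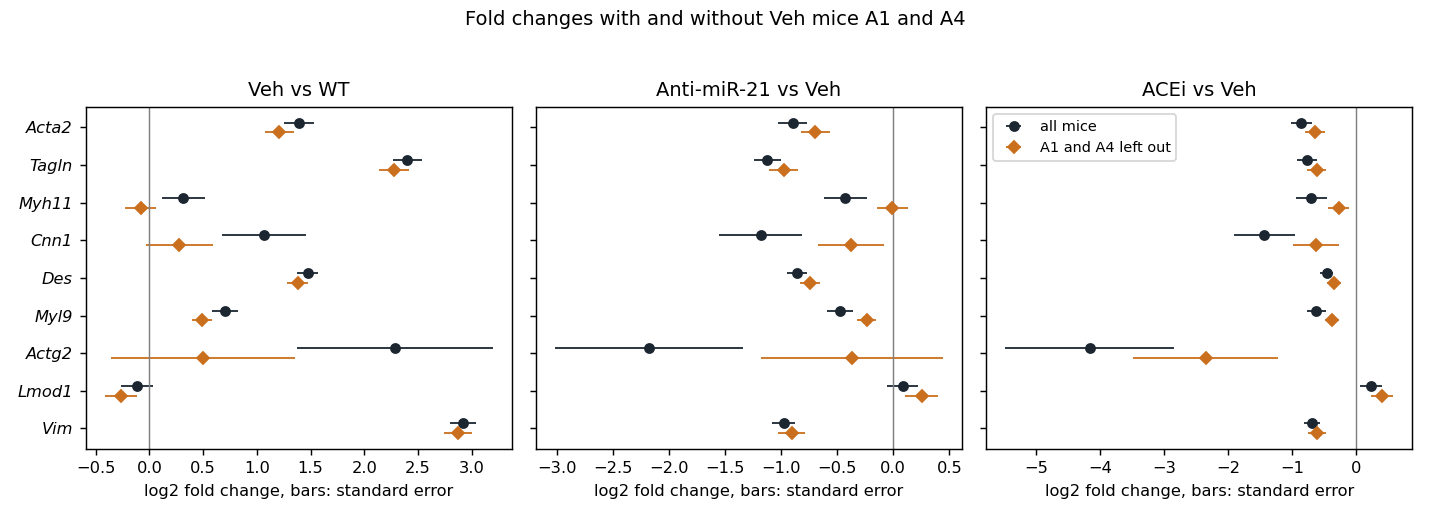
Log2 fold change of each gene (horizontal axes, bars are standard errors) in 3 comparisons with all mice (dark circles) and with Veh mice A1 and A4 left out (orange diamonds). Vim, Tagln and Des move little, with Vim at 2.92 and 2.87 for Veh against WT, whereas Cnn1 goes from 1.07 to 0.28 and Actg2 from 2.28 to 0.49.

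The treatments were compared with each other directly. Flow cell was uneven here, with 5 of 6 Anti-miR-21 mice on A and 2 of 3 ACEi mice on B. None of the 9 genes passed between Anti-miR-21 and ACEi in edgeR's test, where 0.584% of all genes did. At an unadjusted p under 0.05 there were 3, all lower under Anti-miR-21, against 14.5% of all genes: Des (log2 fold change -0.40, SE 0.10, adjusted p = 0.079), Tagln (-0.36, SE 0.15, adjusted p = 0.268) and Vim (-0.29, SE 0.13, adjusted p = 0.297). DESeq2 called 1 of the 9 genes, Des, at an adjusted p of 0.0272, where it called 2.51% of all genes (441 of 17557). The 95% confidence interval was -0.62 to -0.18 for Des, -0.66 to -0.05 for Tagln and -0.55 to -0.03 for Vim. For Acta2 the difference was -0.05 (95% confidence interval -0.39 to 0.29). For Des 1 of the 6 Anti-miR-21 mice, A8 at 37.2 CPM, exceeded the lowest ACEi mouse at 36.6 CPM.

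Finally each treated group was set against WT, to see what difference remained. In both, 4 genes were higher (Acta2, Tagln, Des, Vim) and none lower, where 43.7% of all genes passed for Anti-miR-21 (23.9% as higher) and 47.7% for ACEi (25.2% as higher). Vim stayed furthest from WT, with a log2 fold change of 1.94 (SE 0.12, adjusted p = 2.67e-10) under Anti-miR-21 and 2.23 (SE 0.13, adjusted p = 1.51e-10) under ACEi. Tagln was 1.27 (SE 0.13, adjusted p = 2e-07) and 1.63 (SE 0.15, adjusted p = 3.49e-08). Des was 0.61 (SE 0.09, adjusted p = 2.82e-05) and 1.01 (SE 0.11, adjusted p = 2.75e-07).

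Acta2 was nearest to WT of these 4, at 0.49 (SE 0.14, adjusted p = 0.00812) under Anti-miR-21, where the groups overlapped, and 0.54 (SE 0.17, adjusted p = 0.0114) under ACEi. Within flow cell B the ACEi difference in Acta2 was 0.18 (adjusted p = 0.375), and without ACEi mouse A23 it was 0.48 (adjusted p = 0.0551). Myl9 was 0.23 (adjusted p = 0.135) under Anti-miR-21 and 0.08 (adjusted p = 0.665) under ACEi, and passed for both on library totals alone, at 0.47 and 0.39. Myh11, Cnn1, Actg2 and Lmod1 did not pass in either comparison. Within flow cell B, Myh11 was lower under ACEi than in WT (-0.59, adjusted p = 0.0378).

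As a share of the log2 difference between Veh and WT, Anti-miR-21 values stood 33.5% of the way back to WT for Vim, 46.9% for Tagln, 58.4% for Des, 64.6% for Acta2 and 67.5% for Myl9. The ACEi values stood 23.7%, 32.1%, 31.3%, 61.3% and 88.1% of the way back. Leaving out A1 and A4, the shares for Anti-miR-21 were 31.6%, 43.0%, 54.0%, 57.4% and 48.8%, and for ACEi 21.4%, 27.1%, 24.5%, 52.9% and 76.8%. These shares carry no test, and both treatments are measured against the same Veh and WT mice.

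Other genes of the contractile apparatus were taken from 5 lists. Their counts are to be read against all genes tested, of which 39% passed as higher in Veh than WT, 30.5% as lower under Anti-miR-21 than Veh and 19.1% as lower under ACEi than Veh. With A1 and A4 left out, the shares of all genes that passed in either direction were 70.6%, 54% and 33.3%. Of those genes, 6510 of 12301 were higher in Veh than WT, 4917 of 9409 under Anti-miR-21 than Veh and 3573 of 5795 under ACEi than Veh. Of 16 tested genes of the thin filament and its binding proteins (actins, tropomyosins, calponins, filamin), Veh exceeded WT in 15, and the list's median log2 fold change was 1.64. The largest rise was that of Acta1, the skeletal muscle alpha actin, from 0.11 ± 0.13 CPM (SD, n = 5) to 2.48 ± 0.96 (n = 6), a log2 fold change of 4.45. Synpo2, an actin-binding protein of muscle, did not pass (0.32), and Actc1 had too few counts to be tested. Under Anti-miR-21 and under ACEi 15 of the 16 were lower than in Veh. These counts were 15, 14 and 11 without A1 and A4.

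Of 12 genes of myosin and its regulation, 7 passed as higher in Veh, against 39% of all genes, and none as lower, with a median of 0.42. Myh9, the heavy chain of non-muscle myosin, rose most, from 203.4 ± 21.03 CPM to 646 ± 40.6 CPM (log2 fold change 1.67). Anti-miR-21 was lower for 7 and ACEi for 6, where 30.5% and 19.1% of all genes were, and without A1 and A4 the 3 counts were 8, 6 and 3. Of 9 genes of intermediate filaments and their attachment, 8 were higher, where 39% of all genes were, led by nestin (Nes, 17.98 ± 2.90 to 90.1 ± 11.7 CPM, log2 fold change 2.33). Anti-miR-21 was lower for 8 and ACEi for 6, beside the same 30.5% and 19.1%, and without A1 and A4 the 3 counts were 8, 8 and 3.

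Of 5 tested genes of SRF and its cofactors, 4 were higher and 1 lower in Veh, where 73% of all genes passed and 39% as higher. Fhl2 rose from 15.5 ± 3.90 to 48.9 ± 3.19 CPM (log2 fold change 1.65) and Fhl1 fell from 337 ± 28.02 to 107 ± 17.6 CPM (-1.66), both LIM-only proteins. Myocd, which encodes myocardin, had too few counts to be tested. Under Anti-miR-21 4 were lower and 1, Fhl1, higher than in Veh, and under ACEi 2 were lower and 1, again Fhl1, higher. Without A1 and A4, 4 were higher and 1 lower in Veh, and 2 and 1 were lower under Anti-miR-21 and ACEi.

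Of 9 genes of excitation and relaxation, 7 were higher and 1 lower in Veh, beside the same 73% and 39% of all genes. Gucy1a1, a subunit of the nitric oxide receptor, rose from 14.3 ± 4.56 to 55.5 ± 10.3 CPM (1.96), and Itpr1, a calcium release channel, fell from 182 ± 14.8 to 92.2 ± 12.9 CPM (-0.98). Anti-miR-21 was lower for 3 and higher for 1, and ACEi lower for 1 and higher for 1, shares near or below the 30.5% and 19.1% of all genes that were lower. Without A1 and A4, 6 were higher and 1 lower in Veh, and both treatment counts stayed at 3 and 1 lower. No gene of the 5 lists passed between the treatments.

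**Figure D5:**
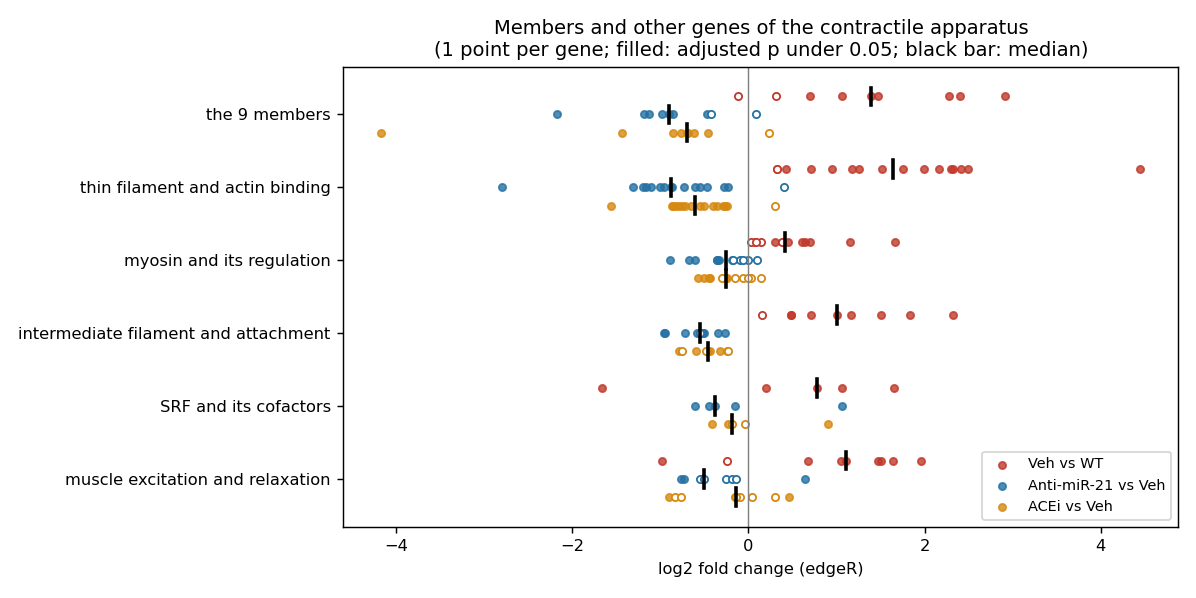
Log2 fold changes (horizontal axis) of the 9 genes and of 5 lists of other contractile genes, with 1 point per tested gene, for Veh against WT, Anti-miR-21 against Veh and ACEi against Veh; filled points have an adjusted p under 0.05 and black bars are medians. The thin filament list has the highest median for Veh against WT (1.64) and the myosin list the lowest (0.42).

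Markers of other cells moved in the same comparisons. Among all genes 73% passed in Veh against WT, and 39% passed as higher. As lower than Veh, 30.5% passed under Anti-miR-21 and 19.1% under ACEi. The 5 fibroblast markers (Pdgfra, Dcn, Col1a1, Col3a1, Lum) were all higher in Veh, with sums of 111 to 283 CPM in WT, 2488 to 3184 in Veh, 499 to 1118 under Anti-miR-21 and 1230 to 1361 under ACEi. Col1a1 and Col3a1 averaged 1177 and 1414 CPM of a mean Veh sum of 2886. Against Veh, Anti-miR-21 was lower for Pdgfra, Col1a1, Col3a1 and Lum but not Dcn (log2 fold change 0.04, adjusted p = 0.852). ACEi was lower for Col1a1 and Col3a1, whereas Pdgfra, Dcn and Lum did not pass (adjusted p = 0.0602, 0.0817 and 0.0578). The 5 markers of myofibroblast matrix (Postn, Fap, Cthrc1, Tnc, Col8a1) summed to 8.60 to 21.1 CPM in WT and 214.9 to 335 in Veh, with all 5 higher. Their sums were 36.7 to 93.6 CPM under Anti-miR-21 and 85.3 to 112 under ACEi. Tnc averaged 194.3 CPM of a mean Veh sum of 263.2. Against Veh, all 5 were lower under Anti-miR-21, and all but Fap (adjusted p = 0.262) under ACEi. The 6 pericyte and mural markers (Rgs5, Notch3, Pdgfrb, Cspg4, Mcam, Gja4) were all higher and summed to 126 to 183 CPM in WT, 399 to 459 in Veh, 229 to 306 under Anti-miR-21 and 320 to 328 under ACEi. All but Gja4 (adjusted p = 0.492 and 0.605) passed as lower under Anti-miR-21 and under ACEi than in Veh. The macrophage sum was 112 to 125 CPM in WT and 369 to 445 in Veh. All 5 proximal tubule markers were lower in Veh, and Havcr1, Lcn2, Vcam1, Krt20 and Spp1, markers of injured tubule, were all higher. The part of each cell type in the members' levels was not tested.

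Of the 5 endothelial markers (Pecam1, Cdh5, Kdr, Tek, Emcn), 2 were higher in Veh than in WT (Pecam1, Cdh5) and 1 was lower (Kdr). Among all genes 73% passed in that comparison and 39% passed as higher, so these counts do not stand out.

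The pattern of single genes over the 20 mice was compared by the root mean square difference of centred log2 CPM, over 13196 genes. Nearest to Acta2 were Tpm2 (0.15), which encodes beta-tropomyosin, Tsc22d1 (0.19) and Eif4ebp1 (0.19). Tpm2 stood at 18.7 ± 3.54 CPM in WT, 44.8 ± 9.02 in Veh, 22.3 ± 2.57 under Anti-miR-21 and 26.5 ± 3.51 under ACEi. Nearest to Myh11 were Rps4l (0.22), Rab25 (0.23) and Adcy5 (0.23). Nearest to Vim were Unc93b1, Relb and Mxra7, at 0.13 to 0.14. Among the 9 genes themselves the closest pairs were Acta2 with Des (0.25), Myh11 with Myl9 (0.29) and Tagln with Vim (0.30).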

How the data were processed

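Total RNA from 20 mouse kidneys was sequenced in paired ends. The labels' extraction text names adipose tissue, whereas source and tissue are given as kidney. The authors mapped reads to GRCm38 with the OmicSoft Aligner in OmicSoft Studio and deposited estimated counts per Ensembl gene (29.1% of positive counts not whole) and FPKM values per gene. The authors' alignment counts were 70004591 to 73294858 per library. Among the FPKM columns, 3 belong to mice with no label here and were not used. Estimated counts were rounded and scaled by TMM, genes were filtered with filterByExpr (minimum count 10, minimum total 15), and all 20 mice were fitted in 1 model by group with edgeR 4.0.16 in R 4.3.3, with Benjamini-Hochberg adjustment over 17622 genes. Samples with separate titles were taken as separate mice, and p-values measure the spread between them. Alternatives were DESeq2 1.42.0 (used by the study to rank genes), limma 3.58.1 on log2(FPKM + 1), the scale of the study's own tests, and log2(FPKM + 0.1), other scalings and filters, flow cell as a term or alone, a fit of just the pair of groups in question, and leaving out every mouse in turn. Leaving out A1 and A4, and flow cell B alone, were chosen after seeing the data. On simulated data (17622 genes, 200 changed 2-fold), 87.5%, 86.5% and 80.5% of changed genes were recovered for Veh against WT, Anti-miR-21 against Veh and ACEi against Veh. Unchanged genes made up 2.78%, 3.35% and 4.73% of the calls. Far fewer genes were changed there than the 73% that passed in Veh against WT, so the simulation does not test the scaling. Flow cells were read from library names. Named genes were all members, the largest rise and fall of each list past the threshold in Veh against WT, and the nearest genes of Acta2, Myh11 and Vim among genes averaging 1 log2 CPM or more. The members and lists were chosen with earlier results of these data known. Promoter windows came from RefSeq. The result of 1 marker list is not reported here.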

Additional observations from a re-analysis of the deposited data

Results flagged for a closer look

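In 27 sets of values (9 genes in WT, Veh and Anti-miR-21), 3 values, in mice A12 and A17, lay far from the rest of their group by Dixon's criterion, where chance gives about 1 in 20. Anti-miR-21 mouse A12 had 7.31 CPM of Cnn1 beside a next value of 3.88, and 2.59 CPM of Actg2 beside 0.50. WT mouse A17 had 2.37 CPM of Actg2 beside 0.55. The adipocyte markers of A12 summed to 99.7 CPM and the urothelium markers of A17 to 35.1 CPM, and their part in these values was not tested. Veh mice A1 and A4 were not singled out in this way because there were 2 of them, and a gap to the nearest mouse does not see a pair.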

How the results depend on the processing

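No paired analysis was possible because the labels give no replicate numbers that pair mice. Acta2, Tagln, Des, Myl9 and Vim kept their direction and call in Veh against WT and Anti-miR-21 against Veh in every alternative run, and Acta2, Tagln and Vim also in ACEi against Veh, where Des and Myl9 lost their calls in flow cell B alone (adjusted p = 0.167 and 0.0839). Of 9 genes, those called with 1 mouse left out numbered 5 to 7 for Veh against WT, 6 to 8 for Anti-miR-21 against Veh, 5 to 8 for ACEi against Veh, 0 to 1 between the treatments (Des without A8, adjusted p = 0.03), 4 to 4 for Anti-miR-21 and 3 to 4 for ACEi against WT. In the same fits and order, the shares of all genes that passed in either direction were 70.9% to 72.8%, 54.8% to 58.9% and 27.6% to 41.7%. They were 0.117% to 1.22% between the treatments, and 37.8% to 45.1% and 38.1% to 47.8% against WT. ACEi against Veh had 3 calls in flow cell B alone, where 7.35% of all genes passed, and 5 without A1 and A4, where 33.3% did. DESeq2 gave 1 between the treatments, where it called 2.51% of all genes. Actg2 in Veh against WT lost its call with flow cell as a term (adjusted p = 0.0628), with only the 2 groups (0.0501) and without WT mouse A3, A6, A14 or A18 or Veh mouse A1 or A4, with the highest adjusted p, 0.103, without A1, and its log2 fold change ranged from 1.66 to 3.69 with 1 mouse left out.

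Library totals alone moved the median of all genes to 0.65, -0.38 and -0.32 in Veh against WT, Anti-miR-21 against Veh and ACEi against Veh, and calls higher from 6869 of 12867 to 11623 of 14307, from 5073 of 10440 to 2459 of 12320 and from 3704 of 7074 to 1907 of 9296. Of the values that changed sign, only Lmod1 in Veh against WT passed the test with its new sign. Its values were 0.30 and 0.45 in FPKM with a pseudocount of 1 and 0.1, 0.47 on library totals and 0.0001 in flow cell A. In the first 3 of these settings Lmod1 was -0.17, -0.23 and -0.26 in Anti-miR-21 against Veh (-0.003 in flow cell A), -0.023, -0.030 and -0.037 in ACEi against Veh, and 0.14, 0.21 and 0.21 in Anti-miR-21 against WT (0.0086 with 10 counts in every mouse). Anti-miR-21 against WT gave 0.12, 0.15 and 0.12 for Myh11 (0.13 in flow cell A) and 0.12, 0.19 and 0.093 for Cnn1 (0.44 in flow cell A), and ACEi against WT 0.038 and 0.083 for Cnn1 in FPKM.

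In flow cell B, Veh against WT was -0.30 for Myh11, -0.23 for Cnn1 and -0.30 for Actg2, and ACEi against WT -0.013 for Myl9 and -0.016 for Lmod1. Myh11 in Veh against WT was -0.082 without A1 and A4, and Acta2 between the treatments 0.0034 with flow cell as a term. With 1 mouse left out, Acta2 ranged from -0.14 to 0.02 and Cnn1 from -0.027 to 0.44 between the treatments, and in Anti-miR-21 against WT Actg2 from -0.88 to 1.52, Cnn1 from -0.40 to 0.10 and Lmod1 from -0.11 to 0.068. The causes were not tested. Depth limits Actg2, which had under 20 counts in 13 mice.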
